A study of Homo sapiens with 25 samples.

Results

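The control libraries of 2 established human lung cancer lines were compared to describe how the lines differ when no RNA is targeted. A549 is labelled a lung adenocarcinoma line and NCI-H460 a large cell carcinoma line, and both are non-small cell lung cancers. The comparison used 5 of the 25 libraries of the study, chosen by their labels: 3 of A549 (replicates 3, 4 and 5) and 2 of NCI-H460 (replicates 1 and 2). Cells of both lines had been transfected with 25 nM of a neutral control antisense oligonucleotide (ASO), bought from Qiagen as Control A, and RNA was taken after 24 h. An ASO is a short modified oligonucleotide that pairs with an RNA and leads to its cleavage, and a neutral one has no intended target. All 5 libraries had thus been through transfection, and none shows an untransfected line. The other 20 libraries (12 of A549 and 8 of NCI-H460) received ASOs against 2 long noncoding RNAs, candidate 42 (42_ASO3 and 42_ASO5) and candidate 240 (240_ASO1 and 240_ASO3). They are used below to see whether a difference between the lines is also found in libraries that the comparison left aside.

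Each line is 1 cell line, so what is found describes these lines and not adenocarcinoma or large cell carcinoma in general. Nothing in the labels shows that the libraries within a group are separate cultures, so p-values measure only the spread between these libraries, which may be technical. The lines share no replicate number, so a difference between lines and a difference in culture, sequencing run or scaling between the 2 sets of libraries cannot be told apart. In bulk RNA, fewer cells of a type and less RNA per cell cannot be told apart either.

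Lung adenocarcinoma is a gland-forming tumour that usually keeps simple epithelial keratins, secreted mucins and, in many cases, the lung lineage factor NKX2-1. Large cell carcinoma is defined by the lack of glandular, squamous and neuroendocrine features under the microscope. Both lines are widely used and are known to carry mutations in STK11, a kinase of energy metabolism, and in KEAP1, the adaptor that normally sends the antioxidant factor NRF2 to degradation. They also lack the tumour suppressor CDKN2A.

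Values are in TPM (transcripts scaled to a common total, corrected for transcript length), rescaled by the authors, for 59427 gene names. The 14744 names whose mean across the 5 libraries reached 1 TPM were tested on the scale log2(TPM + 0.5), on which the fold of a gene near 0 is understated. A difference below is the A549 mean minus the NCI-H460 mean on that scale, positive where A549 was higher, and is given ± its standard error. A gene is called at a limma adjusted p under 0.05, and a difference printed without a p was called. Pairs of TPM values such as 148 against 0.262 are the mean of the 3 A549 libraries against the mean of the 2 NCI-H460 libraries. Column sums ran from 947369 to 1066349, 25132 to 26694 names had a value above 0, and mitochondrially encoded transcripts held 7.64% to 9.98% of a column. The number of reads behind a value is unknown. Across genes, libraries of A549 correlated at r = 0.967 to 0.983, the 2 libraries of NCI-H460 at 0.987, and libraries of different lines at 0.807 to 0.810, as a description only.

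The lines differed widely: 7041 genes were called, which is 47.8% of the genes tested. Of these, 4695 were higher in A549 (31.8%) and 2346 in NCI-H460 (15.9%). A call together with a difference of at least 2, which is 4-fold on this scale, was made for 1692 genes (11.5%), 1059 in favour of A549 (7.18%) and 633 in favour of NCI-H460 (4.29%). The values of the 2 lines did not overlap for 10117 genes (68.6%). Of the genes with a difference of at least 2, 309 on the A549 side and 156 on the NCI-H460 side had a mean under 0.1 TPM in the other line. The median difference of all genes tested was 0.21, and this depends on the scaling: with median-of-ratios scaling the median was -0.01 and the calls split into 3562 higher in A549 and 3343 higher in NCI-H460. Without NCI-H460 replicate 1 there were 3840 calls (2641 and 1199 in these directions), and without replicate 2 there were 3754 (2584 and 1170).

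**Figure D1:**
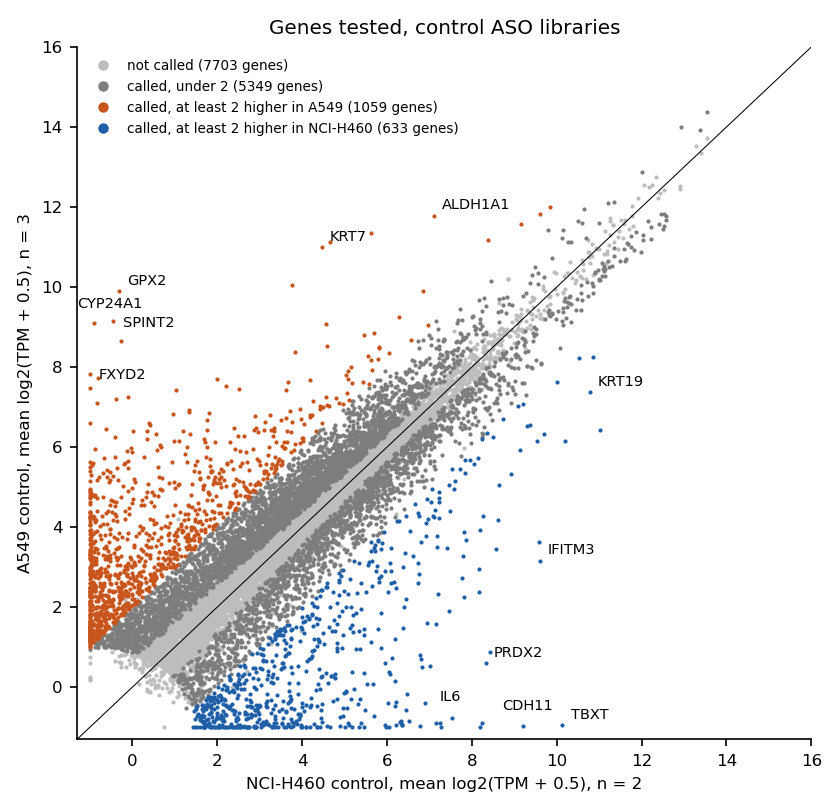
Mean log2(TPM + 0.5) of each gene tested in the 2 NCI-H460 control libraries (x axis) and the 3 A549 control libraries (y axis), coloured by the call, with the line of equal values in black. The genes furthest from the line lie along the axes at or somewhat above -1, the value of a gene listed at 0 TPM. They include GPX2 and SPINT2 on the A549 side and TBXT and CDH11 on the NCI-H460 side.

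Libraries that received a targeting ASO gave the same line differences for most of these genes. Tested in the same way, the lines differed in 62.7% of genes with 42_ASO3, 58.9% with 42_ASO5, 59.8% with 240_ASO1 and 40.4% with 240_ASO3. Of the 7041 genes called between controls, 5541 (78.7%), 6289 (89.3%), 6379 (90.6%) and 5096 (72.4%) were called in the same direction with these ASOs, in that order. These shared calls were 59.9%, 72.4%, 72.3% and 85.6% of the calls made with each ASO. Of the 7041, 4399 were called in the same direction with all 4 ASOs, and for 4479 (63.6%) none of the 12 A549 values overlapped the 8 NCI-H460 values. Of the 1692 genes with a difference of at least 2, these were 1565 and 1545 (91.3%). Over all 14744 genes tested they were 4730, with the sign of the control difference, and 5001 (33.9%). The size of the line difference itself was called different from that between controls for 2929 genes with 42_ASO3 (19.9%), 174 with 240_ASO3 (1.18%), 6 with 42_ASO5 (0.0407%) and 1 with 240_ASO1 (0.00678%).

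The 12 gene symbols with the largest difference in each direction were taken as leading genes. On the A549 side GPX2, an intestinal-type glutathione peroxidase that removes peroxides, stood first. GPX2 (chr14:64939152-64942905, minus strand, hg38) was at 1026, 1047 and 811 TPM in the A549 libraries and at 0.256 and 0.351 TPM in the NCI-H460 libraries (difference 10.22 ± 0.15, adjusted p = 5.72e-07). All 3 A549 libraries thus lay far above both NCI-H460 libraries. CYP24A1 (chr20:54153446-54173986), the mitochondrial enzyme that inactivates vitamin D hormone, was at 385, 547 and 782 TPM in A549 and at 0.0733 and 0 TPM in NCI-H460 (difference 10.002 ± 0.29, adjusted p = 3.34e-06). Replicate 3 was the lowest and replicate 5 the highest A549 library for CYP24A1, and all 3 lay far above NCI-H460. ELF3 (chr1:202007945-202017183), an epithelial ETS transcription factor, was at 414, 404 and 397 TPM against 0.319 and 0.336 TPM (difference 8.94 ± 0.11, adjusted p = 4.67e-07), with little spread within a line.

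GPX2 is a known target of NRF2, the antioxidant factor held down by KEAP1, and its promoter is shown because it holds the core of the antioxidant response element that NRF2 binds. The core was searched as TGACNNNGC on either strand of the 250 bases before the RefSeq start (one promoter per gene), and 3033 of 27305 promoters hold it (11.1%). The window is chr14:64942746-64942995 (GRCh38.p14, RefSeq), printed 5′ to 3′ on the minus strand of the gene, with the match in capitals. The match begins 122 bases before the RefSeq start and reads as the core on the opposite strand, and a match describes the letters only, not binding. The deposited start of GPX2 (64942905) lies upstream of the match, so by the deposited position the match is within the gene.
GPX2: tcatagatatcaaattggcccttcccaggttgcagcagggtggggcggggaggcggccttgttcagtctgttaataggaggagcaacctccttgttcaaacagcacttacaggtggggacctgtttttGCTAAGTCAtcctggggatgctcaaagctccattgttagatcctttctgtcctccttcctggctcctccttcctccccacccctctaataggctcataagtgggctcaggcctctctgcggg

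SPINT2 (chr19:38244035-38292615, plus strand), a membrane-bound inhibitor of serine proteases, was at 594, 558 and 555 TPM in A549 and 0.261 and 0.187 TPM in NCI-H460 (difference 9.62 ± 0.12, adjusted p = 4.67e-07). PPP1R14A (chr19:38251237-38256532, minus strand), a phosphatase inhibitor of smooth muscle, lies within SPINT2 on the other strand. It was at 279, 205 and 203 TPM in A549 and listed at 0 in both NCI-H460 libraries (difference 8.83 ± 0.18). How strand was handled is not stated in any source used here, and only the gene spans were compared, not the exons. Whether reads are shared between these 2 overlapping genes is therefore uncertain. FXYD2, a regulatory subunit of the sodium pump best known in kidney, was at 155, 204 and 179 TPM in A549 and listed at 0 in both NCI-H460 libraries (difference 8.48 ± 0.16). PYCARD, the inflammasome adaptor ASC, was also listed at 0 in both NCI-H460 libraries and stood at 120.1, 92.9 and 82.4 TPM in A549 (difference 7.61 ± 0.20). WNT7B, a Wnt ligand of lung epithelium, was at 137 ± 12.2 TPM in A549 (mean ± SD, n = 3) against 0.0652 ± 0.0546 TPM in NCI-H460 (mean ± SD, n = 2), a difference of 7.92 ± 0.16. The mucin-type glycosyltransferase GCNT3 was at 148 against 0.262 TPM (difference 7.60 ± 0.14), the transglutaminase TGM2 at 152 against 0.433 TPM (difference 7.35 ± 0.15) and the prostaglandin-degrading enzyme HPGD at 88.1 against 0.157 TPM (difference 7.07 ± 0.21). XAGE1A, a cancer-testis antigen gene of the X chromosome, belonged among the 12 too, at 210.4 against 0.0703 TPM (difference 8.54 ± 0.17). Its near-identical copy XAGE1B was called as well (16.03 TPM in A549 and listed at 0 in NCI-H460, difference 5.04 ± 0.19), so the split of reads between them is uncertain.

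The largest difference of the 14744 genes tested was in the opposite direction. TBXT (chr6:166157656-166168700, minus strand), which encodes brachyury, the T-box factor of the early mesoderm and the notochord, was at 1175 and 1067 TPM in NCI-H460 and at 0, 0 and 0.0479 TPM in A549 (difference -11.09 ± 0.15, adjusted p = 5.01e-07). It was thus among the abundant transcripts of NCI-H460 and was listed at 0 in 2 of the 3 A549 libraries. CDH11 (chr16:64943753-65126112), the cadherin of mesenchymal and bone-forming cells, was at 597 and 573 TPM in NCI-H460 and at 0, 0.0169 and 0 TPM in A549 (difference -10.18 ± 0.15, adjusted p = 5.72e-07). EPB41L3, a membrane skeleton protein of the 4.1 family, was at 295 and 290.5 TPM in NCI-H460 and listed at 0 in all 3 A549 libraries (difference -9.20 ± 0.16). LAMA1, a laminin chain of embryonic basement membrane that lies near EPB41L3 on the short arm of chromosome 18 (chr18:6941742-7117797 and chr18:5392381-5630700), was at 90.7 TPM in NCI-H460 and 0.0580 TPM in A549 (difference -7.36 ± 0.20). IL6, the inflammatory cytokine, was at 203 and 169 TPM in NCI-H460 and at 0.157, 0.113 and 0 TPM in A549 (difference -8.31 ± 0.21, adjusted p = 2.80e-06).

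HOPX, a homeodomain-only protein that marks alveolar type I cells, was at 109 and 109 TPM in NCI-H460 and at 0, 0 and 0.0290 TPM in A549 (difference -7.75 ± 0.18). PRDX2, an abundant cytosolic peroxiredoxin that removes hydrogen peroxide, was at 329.8 and 309.8 TPM in NCI-H460 and only 0.779, 1.06 and 1.26 TPM in A549 (difference -7.72 ± 0.18, adjusted p = 2.24e-06). The peroxidases at the top of both lists thus ran in opposite directions, GPX2 high in A549 and PRDX2 high in NCI-H460. The defensin DEFB1 (342 against 1.35 TPM) and the short-chain collagen COL8A1 (153 against 0.0410 TPM) were also among the 12, with differences of -7.54 ± 0.16 and -8.14 ± 0.18. So were the glutathione transferase GSTM1 and the serpins SERPINB2 and SERPINB11, which are taken up with their neighbours below. With noncoding-type names, the leaders were IGFL2-AS1 (83.7 against 0.531 TPM, difference 6.37 ± 0.20), AC243919.1 (1055 against 13.7 TPM, difference 6.27 ± 0.24) and BX284668.5 (29.8 TPM, listed at 0 in NCI-H460, difference 5.92 ± 0.17) in A549. In NCI-H460 they were LINC00824 (302 against 0.0446 TPM, difference -9.12 ± 0.19), AL691515.2 (62.3 TPM, listed at 0 in A549, difference -6.97 ± 0.19) and LINC00942 (72.7 against 0.239 TPM, difference -6.65 ± 0.25).

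**Figure D2:**
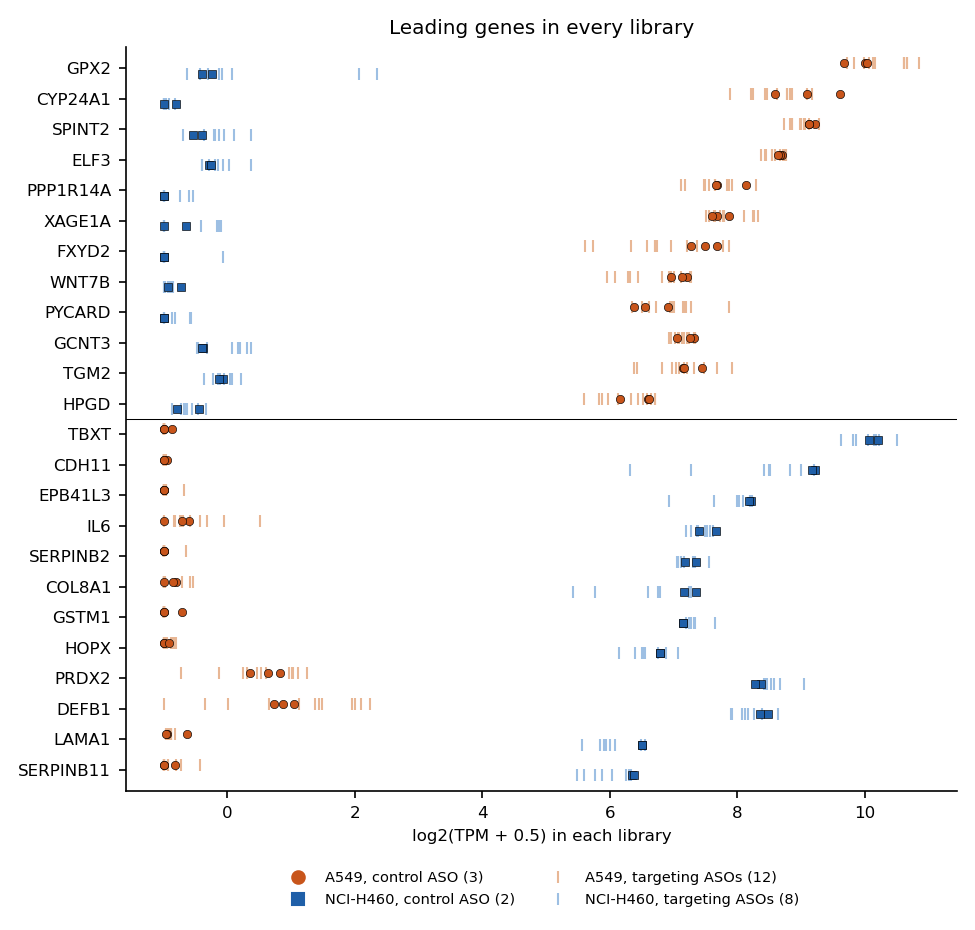
Log2(TPM + 0.5) of the 12 symbols with the largest difference in each direction in every library, with control libraries as filled circles (A549, 3) and squares (NCI-H460, 2) and targeting-ASO libraries as short bars (12 and 8). The control libraries of the lines are apart by the choice of genes. The lines also stay apart in the targeting-ASO libraries, whose bars reach furthest from the controls for CDH11, GPX2 and COL8A1 in NCI-H460.

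Among the keratins, KRT7, KRT8 and KRT18 of simple epithelia were higher in A549 and KRT19 in NCI-H460. Of 7 listed keratins tested, these 4 with KRT80, KRT81 and KRT86, 6 were higher in A549 and 1 in NCI-H460, with a median difference of 2.17. Over all genes tested these calls were 31.8% and 15.9% and the median was 0.21, which are the values to set beside each list below. A gene high in 1 line passes the filter through that line, and A549 weighs more with 3 of the 5 libraries, so a list's counts and median describe the members that passed and not the whole list. KRT7, a keratin of glandular epithelium, was at 2384, 1762 and 2015 TPM in A549 and 22.4 and 20.7 TPM in NCI-H460 (difference 6.53 ± 0.15, adjusted p = 2.10e-06). The partners KRT8 (4127 ± 381 against 915 ± 9.65 TPM, difference 2.17 ± 0.14) and KRT18 (3054 ± 215 against 573 ± 27.5 TPM, difference 2.41 ± 0.13) were abundant in both lines and higher in A549. KRT81, a hair-type keratin, was at 3667, 2131 and 2332 TPM against 50.5 and 47.3 TPM (difference 5.74 ± 0.24). KRT80 was at 30.6 against 12.4 TPM (difference 1.25 ± 0.16). The KRT81 copy KRT86 was at 3.05 against 0.831 TPM (difference 1.42 ± 0.26), with adjusted p = 0.00514, or 0.0551 without NCI-H460 replicate 1. The split between KRT81 and KRT86 is uncertain because their sequences are alike. KRT19, the smallest keratin of simple epithelia, was the exception, at 176, 165 and 156 TPM in A549 and 1804 and 1708 TPM in NCI-H460 (difference -3.40 ± 0.11, adjusted p = 4.47e-06).

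Of 43 genes of epithelial junctions and their regulators, 30 were tested, of which 18 were higher in A549 and 4 in NCI-H460 (median 1.18). CDH1, the adherens junction protein E-cadherin, was at 12.6, 21.2 and 20.5 TPM in A549 and 0.0984 and 0 TPM in NCI-H460 (difference 5.05 ± 0.28, adjusted p = 3.11e-05). The pore-forming claudin CLDN2 was at 28.5 against 0.00609 TPM (difference 5.83 ± 0.19). The desmosomal plaque protein DSP was at 21.5 against 0.0606 TPM (difference 5.24 ± 0.32) and the apical polarity protein CRB3 at 12.4 against 0.0960 TPM (difference 4.44 ± 0.19). All of these were near 0 in NCI-H460. CLDN4, a sealing claudin, went the other way, at 3.35, 3.10 and 2.42 TPM in A549 and 31.8 and 25.8 TPM in NCI-H460 (difference -3.08 ± 0.20).

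Mesenchymal genes were not simply the mirror image. Of 30 tested, 14 were higher in A549 and 8 in NCI-H460 (median 0.73). The A549 share of these calls was 63.6%, near the 66.7% of the calls over all genes tested. With median-of-ratios scaling these shares were 63.6% and 51.6%. On the NCI-H460 side stood FN1, the matrix protein fibronectin, at 64.8, 91.1 and 83.8 TPM in A549 and 842 and 828 TPM in NCI-H460 (difference -3.39 ± 0.16). The protease inhibitor SERPINE2 was at 59.9 against 565 TPM (difference -3.23 ± 0.10) and the matricellular protein CCN2 at 19.4 against 149 TPM (difference -2.98 ± 0.31). On the A549 side stood the receptor kinase AXL, at 42.7, 44.9 and 48.3 TPM in A549 and 3.03 and 3.03 TPM in NCI-H460 (difference 3.70 ± 0.14). The matrix protein THBS1 was at 14.95 against 0.685 TPM (difference 3.71 ± 0.24). TWIST1, a transcription factor that promotes a mesenchymal state, was at 4.86 against 0.0481 TPM (difference 3.28 ± 0.25). CDH2, which encodes N-cadherin, was higher in A549 (8.38 against 0.622 TPM, difference 2.98 ± 0.19), next to its E-cadherin. VIM, the intermediate filament vimentin, was abundant in both lines, at 663, 669 and 674 TPM in A549 and 927 and 859 TPM in NCI-H460 (difference -0.42 ± 0.11), with adjusted p = 0.0186. This call was lost without either NCI-H460 library (adjusted p = 0.179 and 0.107) or without A549 replicate 4 (0.0693). ZEB1, a repressor of CDH1, was at 2.52, 5.24 and 5.20 TPM in A549 and 1.80 and 2.58 TPM in NCI-H460 (difference 0.79 ± 0.34) and was not called (adjusted p = 0.1). Without A549 replicate 3, the A549 library nearest to NCI-H460, it was called higher in A549 (adjusted p = 0.00645).

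Lung lineage factors and alveolar markers had a summed level of 326 to 361 TPM in A549 and 469 to 501 TPM in NCI-H460. Of 30 members, 16 were tested, with 6 higher in A549 and 4 in NCI-H460 (median -0.04). NKX2-1 was listed at 0 in all 3 A549 libraries and at 0.0357 and 0.0310 TPM in NCI-H460. The surfactant gene SFTPB was at 0.0815, 0.0485 and 0.0194 TPM in A549 and 0.0871 and 0.121 TPM in NCI-H460. Neither was at a level that was tested. The pioneer factors of the FOXA family were split between the lines. FOXA2 was at 36.8, 32.8 and 36.2 TPM in A549 and listed at 0 in both NCI-H460 libraries (difference 6.16 ± 0.17, adjusted p = 3.19e-06), and FOXA3 was at 7.19 against 0.0954 TPM (difference 3.70 ± 0.21). FOXA1 was at 15.1, 17.5 and 19.01 TPM in A549 and 59.5 and 55.04 TPM in NCI-H460 (difference -1.71 ± 0.15, adjusted p = 0.000177).

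Of 42 genes of liver and gut epithelium, 22 passed the filter, of which 20 were higher in A549 and 1 in NCI-H460 (median 3.36). These passed mostly through A549. With no filter, 40 of the list were tested, of which 23 were higher in A549 and 1 in NCI-H460 (median 1.19, beside 0.05 over the 34140 genes then tested, of which 21.8% were called). HNF4A, a nuclear receptor that drives the liver program, was among them, at 17.6, 15.9 and 16.01 TPM in A549 and 0 and 0.00671 TPM in NCI-H460 (difference 5.08 ± 0.18). The 3 chains of the clotting protein fibrinogen lie side by side on chromosome 4. FGA (chr4:154583128-154590745) was at 25.5, 43.1 and 54.7 TPM in A549 and 0.0166 and 0 TPM in NCI-H460 (difference 6.29 ± 0.32), with adjusted p = 2.36e-05. FGB (chr4:154563011-154572807) was at 23.1, 51.3 and 43.7 TPM in A549 and 0.157 and 0.00892 TPM in NCI-H460 (difference 6.03 ± 0.35), with adjusted p = 3.83e-05. FGG (chr4:154604134-154612967) was at 10.4, 30.4 and 35.5 TPM and 4.37 and 4.43 TPM (difference 2.23 ± 0.50, adjusted p = 0.0106), a call lost without either NCI-H460 library (adjusted p = 0.0958 and 0.0959). All 3 chains were lowest in replicate 3 among the A549 libraries.

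Other liver genes had the same pattern. The secreted protein FGL1 was at 28.8 TPM in A549 and listed at 0 in NCI-H460 (difference 5.86 ± 0.21). The apolipoprotein gene APOH was at 15.5, 18.3 and 14.9 TPM in A549 and listed at 0 in NCI-H460 (difference 5.06 ± 0.20), and APOE was at 38.2 against 1.17 TPM (difference 4.52 ± 0.31). RBP4, the retinol carrier of plasma, was at 14.2 against 0.303 TPM (difference 4.17 ± 0.25). The membrane protein TM4SF4 was at 17.8, 32.4 and 31.3 TPM in A549 and listed at 0 in NCI-H460 (difference 5.74 ± 0.29). F2, which encodes prothrombin, was at 2.13 TPM in A549 and listed at 0 in NCI-H460 (difference 2.36 ± 0.31). The gut adhesion protein CEACAM6 was also listed at 0 in NCI-H460 but ranged widely in A549, at 6.09, 72.2 and 60.2 TPM (difference 5.94 ± 0.99, adjusted p = 0.00326). Replicate 3 was again lowest, and the difference was 7.05 without it and 5.32 without replicate 4. CPS1, the first enzyme of the urea cycle, was the exception, at 10.98, 15.2 and 18.8 TPM in A549 and 293 and 291 TPM in NCI-H460 (difference -4.27 ± 0.22, adjusted p = 2.36e-05).

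Of 11 mucins and secretory genes tested, 8 were higher in A549 and 1 in NCI-H460 (median 3.67). With no filter these were 8 and 1 of 23 (median 0.46). The summed level of the list went the other way, at 357 to 445 TPM in A549 and 689 to 739 TPM in NCI-H460, most of it from AGR2. SPDEF, a factor of goblet cells, was at 29.9, 27.1 and 25.1 TPM in A549 and 0.0603 and 0.0186 TPM in NCI-H460 (difference 5.69 ± 0.18). The airway mucin MUC5B was at 18.7 against 0.0330 TPM (difference 5.11 ± 0.32). LCN2, which binds iron carriers of bacteria, was at 10.998, 29.2 and 19.6 TPM in A549 and listed at 0 in NCI-H460 (difference 5.25 ± 0.39). AGR2, a disulphide isomerase needed for mucin folding, was the member higher in NCI-H460 (249, 298 and 231 TPM in A549 and 652 and 703 TPM in NCI-H460, difference -1.39 ± 0.14, adjusted p = 0.000371).

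Neuroendocrine and neuronal genes were split evenly, 8 higher in A549 and 8 in NCI-H460 among 17 tested (median 0.43). On the A549 side, the intermediate filament INA was at 24.6 TPM and listed at 0 in NCI-H460 (difference 5.63 ± 0.23). The synaptic protein SNAP25 was at 12.6 against 0.284 TPM (difference 4.05 ± 0.23), the granule protein CHGB at 8.72 against 0.165 TPM (difference 3.78 ± 0.22) and the neuronal enolase ENO2 at 41.9 against 8.03 TPM (difference 2.31 ± 0.14). On the NCI-H460 side, the granule protein CHGA was at 0.972, 0.922 and 0.714 TPM in A549 and 21.2 and 19.97 TPM in NCI-H460 (difference -3.95 ± 0.20). The light neurofilament NEFL was at 1.02 against 61.6 TPM (difference -5.36 ± 0.18), the microtubule protein MAP2 at 0.612 against 12.5 TPM (difference -3.59 ± 0.28) and the adhesion protein NCAM1 at 0.0109 against 3.77 TPM (difference -3.05 ± 0.25). UCHL1, a ubiquitin hydrolase of neurons, was high in both (784 against 1257 TPM, difference -0.69 ± 0.14), with adjusted p = 0.00662, or 0.0737 and 0.0883 without NCI-H460 replicates 1 and 2. The chromogranin pair was thus divided, CHGB in A549 and CHGA in NCI-H460.

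Squamous markers were mostly low, with 4 of 26 tested (3 higher in A549 and 1 in NCI-H460). The basal factor TP63 lay under the filter, at 0.819, 2.15 and 1.85 TPM in A549 and 0.110 and 0 TPM in NCI-H460. SOX2 was at 5.22 against 0.0277 TPM (difference 3.42 ± 0.26) and the serpin SERPINB5 at 0.0210 against 33.7 TPM (difference -6.04 ± 0.20). Markers of cells that a pure line should not hold were mostly at or near 0, with 3 of 16 leukocyte, 2 of 12 endothelial and 4 of 12 fibroblast markers tested. PTPRC and CD3E of leukocytes, TEK of endothelium and FAP of fibroblasts were listed at 0 in all 5 libraries. The summed level of the leukocyte list was 38.8 to 45.7 TPM in A549 and 33.8 to 45.6 TPM in NCI-H460. That of the endothelial list was 65.1 to 94.96 TPM in A549 and 72.2 to 82.3 TPM in NCI-H460, and that of the fibroblast list 12.4 to 16.1 TPM in A549 and 11.3 to 11.9 TPM in NCI-H460. Single markers made up most of the first 2 sums. CD14 was at 15.1 against 16.8 TPM (adjusted p = 0.626) and CD68 at 23.3 against 21.9 TPM (adjusted p = 0.637). EGFL7 was at 72.6 against 76.6 TPM (adjusted p = 0.713). EGFL7 was called higher in NCI-H460 without A549 replicate 3 (adjusted p = 0.0477). ITGAM was at 2.26 against 0.151 TPM (difference 2.10 ± 0.28) and THY1 at 9.15 against 0.00764 TPM (difference 4.23 ± 0.24), both higher in A549. The matrix genes COL3A1, at 0.0571 against 3.95 TPM (difference -2.999 ± 0.23), and LUM, at 0.123 against 4.09 TPM (difference -2.86 ± 0.26), were higher in NCI-H460.

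Homeobox genes of the HOX clusters record the position of a tissue along the body axis, and the lines differed by cluster. In HOXB 5 of 8 tested genes were higher in A549 and 0 in NCI-H460, and in HOXC 5 of 6 against 0 (3 calls without NCI-H460 replicate 1). The medians were 1.51 and 1.28. HOXB2 was at 6.90, 6.08 and 8.23 TPM in A549 and 0 and 0.0456 TPM in NCI-H460 (difference 3.85 ± 0.22). HOXB3 was at 10.7 against 2.24 TPM (difference 2.01 ± 0.24), HOXB8 at 15.9 against 1.20 TPM (difference 3.28 ± 0.19) and HOXC4 at 5.62 against 0.647 TPM (difference 2.42 ± 0.20). HOXB7 was the most abundant member of its cluster in A549 (34.8 against 14.1 TPM, difference 1.27 ± 0.15). In HOXA the calls were mixed, 3 of 11 higher in A549 and 4 in NCI-H460, or 2 and 5 with median-of-ratios scaling (median -0.25 as deposited and -0.46 so scaled), and 4 were called in all without either NCI-H460 library. HOXA3 was not called, at 18.6 against 19.5 TPM (adjusted p = 0.738). HOXA9 was higher in NCI-H460, at 0.426, 1.11 and 0.519 TPM in A549 and 8.19 and 8.78 TPM in NCI-H460 (difference -2.97 ± 0.29). So were HOXA11, at 0.742 against 5.08 TPM (difference -2.18 ± 0.23), and HOXA10, at 5.93 against 11.3 TPM (difference -0.86 ± 0.21), with adjusted p = 0.014 for HOXA10, or 0.158 without NCI-H460 replicate 2. The noncoding HOTAIRM1 (chr7:27095647-27100265), transcribed from the same cluster, was higher in A549, at 13.1, 13.5 and 15.3 TPM in A549 and 1.69 and 0.0726 TPM in NCI-H460 (difference 3.69 ± 0.52). The cluster is transcribed from both strands, so its reads may be shared with neighbours. The NCI-H460 libraries differed here, and the difference was 4.66 without replicate 1 and 2.72 without replicate 2. In HOXD only 2 of 9 genes were tested, and HOXD13 was higher in NCI-H460 (0.130 against 2.41 TPM, difference -2.21 ± 0.23).

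**Figure D3:**
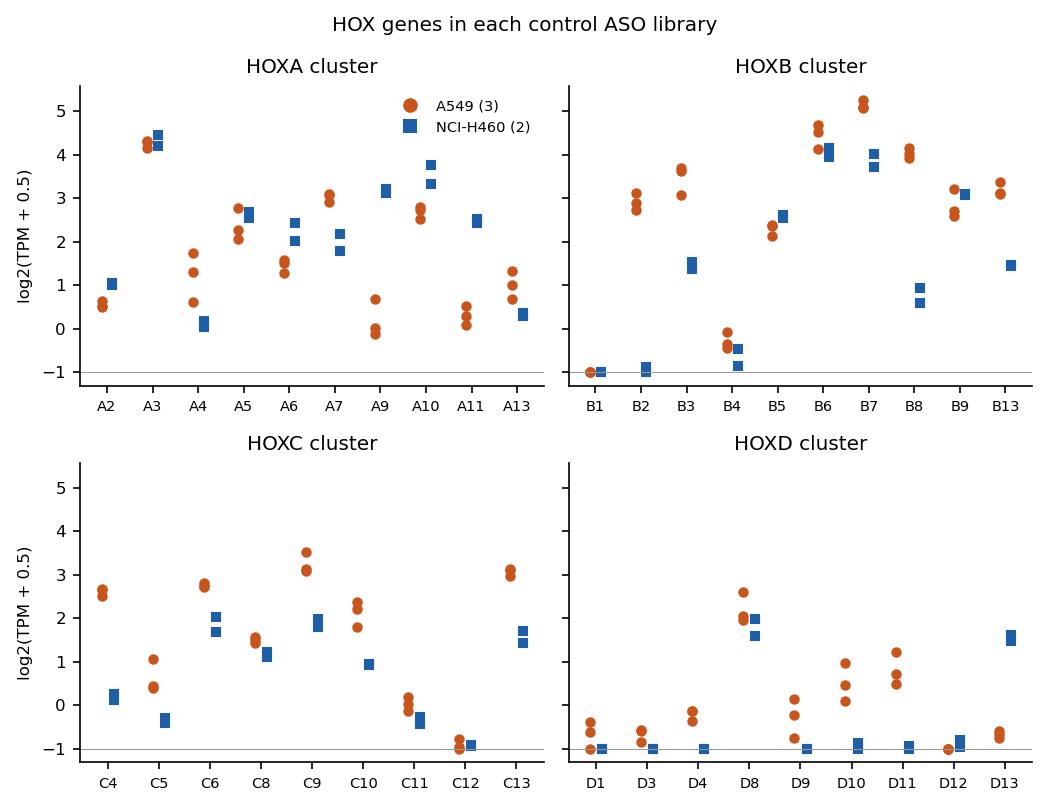
Log2(TPM + 0.5) of HOX genes in each control library, by cluster and in the order of the gene numbers, with A549 as circles (3) and NCI-H460 as squares (2) and the value of a gene listed at 0 as a grey line. A549 lies above NCI-H460 at HOXB2, HOXB3, HOXB8 and HOXC4, and NCI-H460 lies above A549 at HOXA9, HOXA10, HOXA11 and HOXD13.

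Other developmental genes divided in the same gene-by-gene manner, 26 higher in A549 and 23 in NCI-H460 of 62 transcription factors tested (median 0.07; 31 calls in all without NCI-H460 replicate 1). NKX2-5, the heart homeobox factor, was at 23.2, 15.7 and 16.7 TPM in A549 and listed at 0 in NCI-H460 (difference 5.23 ± 0.23). The oncofetal chromatin protein HMGA2 (14.5 against 0.0451 TPM, difference 4.76 ± 0.25) and the oncofetal mRNA-binding protein IGF2BP1 (52.8, 57.01 and 67.2 TPM against 0.229 and 0.846 TPM, difference 5.90 ± 0.28) were also higher in A549. NCI-H460 was higher in FOXC1, a forkhead factor of mesoderm and eye, at 3.58, 4.98 and 5.68 TPM in A549 and 67.1 and 62.2 TPM in NCI-H460 (difference -3.66 ± 0.21). The Iroquois factor IRX2 was at 0.711 against 21.8 TPM (difference -4.20 ± 0.20). FOXF1, a forkhead factor of lung mesenchyme, was at 0.00326 against 3.49 TPM (difference -2.99 ± 0.23). The noncoding FENDRR, transcribed away from FOXF1 on the other strand, followed it (0.0144 against 3.83 TPM, difference -3.07 ± 0.24).

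NRF2 target genes, which detoxify electrophiles, had summed levels of 64670.4 to 87327 TPM in A549 and 47017 to 48083 TPM in NCI-H460. No other line was compared, so whether these levels are high, or are tied to KEAP1, was not tested. KEAP1 itself was at 83.2, 65.5 and 59.1 TPM in A549 and 66.6 and 64.7 TPM in NCI-H460 and was not called (difference 0.06 ± 0.16, adjusted p = 0.78). All 52 listed target genes passed the filter, of which 24 were higher in A549 and 13 in NCI-H460 (median 0.17, below the 0.21 of all genes), or 18 and 15 with median-of-ratios scaling. Without either NCI-H460 library 21 were called. The heme oxygenase HMOX1 was at 565, 452 and 338 TPM in A549 and 41.8 and 45.3 TPM in NCI-H460 (difference 3.33 ± 0.21, adjusted p = 5.54e-05), and the carboxylesterase CES1 at 38.2 against 2.50 TPM (difference 3.64 ± 0.27). NCI-H460 was higher in the tetraspanin TSPAN7 (4.28 against 86.8 TPM, difference -4.24 ± 0.27) and the fatty acid hydroxylase CYP4F11 (10.7 against 67.8 TPM, difference -2.62 ± 0.16). A promoter matched in RefSeq for 38 of the 52 listed genes, and 10 of these 38 hold TGACNNNGC (26.3%, beside 11.1% of all promoters). Too few genes were matched to read a share over the list. CYP4F11 is shown because it was higher in NCI-H460, opposite to GPX2, and its promoter also holds the letters TGACNNNGC. The window is chr19:15934868-15935117 (GRCh38.p14, RefSeq), 5′ to 3′ on the minus strand of the gene, with the match in capitals from 156 bases before the start.
CYP4F11: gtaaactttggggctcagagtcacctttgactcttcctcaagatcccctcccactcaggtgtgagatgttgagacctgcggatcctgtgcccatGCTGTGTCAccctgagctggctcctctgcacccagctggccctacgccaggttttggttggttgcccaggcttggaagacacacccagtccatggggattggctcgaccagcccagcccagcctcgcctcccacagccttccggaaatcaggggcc

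The aldo-keto reductases, NADPH-dependent enzymes that reduce carbonyls and steroids, were among the most abundant of these genes. Of 9 tested, 6 were higher in A549 and 0 in NCI-H460 (median 1.62), or 6 and 1 with median-of-ratios or same-sum scaling. AKR1C2 was at 4023, 3631 and 3289 TPM in A549 and 751 and 802 TPM in NCI-H460 (difference 2.23 ± 0.14), with adjusted p = 4.80e-05. AKR1C3 was at 2751 ± 353 against 888 ± 37.8 TPM (difference 1.62 ± 0.15), and AKR1B1 at 3001, 1971 and 2039 TPM in A549 and 333 and 332 TPM in NCI-H460 (difference 2.78 ± 0.20). AKR1C1 lies beside AKR1C2 on chromosome 10 and is nearly identical to it in sequence. It was at 1726, 1229 and 1043 TPM in A549 and 1189.7 and 1251 TPM in NCI-H460 (difference 0.10 ± 0.22) and was not called (adjusted p = 0.748), and its sign turned with median-of-ratios scaling (-0.14). The division of reads among the AKR1C genes is therefore uncertain. AKR1B10 was at 3275 ± 580.1 against 1449.9 ± 137 TPM (difference 1.16 ± 0.18, adjusted p = 0.00246). This call was lost without NCI-H460 replicate 1 (adjusted p = 0.0592). The minor member AKR1E2 was at 13.1 against 0.343 TPM (difference 4.01 ± 0.20).

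Among the aldehyde dehydrogenases, ALDH1A1, which makes retinoic acid and is used as a stem cell marker in lung tumours, was at 3064, 3872 and 3711 TPM in A549 and 134 and 139 TPM in NCI-H460 (difference 4.69 ± 0.14, adjusted p = 3.49e-06). Its mean ratio was 25.98, and in A549 its mean of 3549 TPM lay between those of KRT18 and KRT8. Of 15 tested members, 8 were higher in A549 and 3 in NCI-H460 (median 0.92). ALDH1A3 was at 11.6, 22.3 and 22.6 TPM in A549 and 1.26 and 0.507 TPM in NCI-H460 (difference 3.80 ± 0.37). The mitochondrial acetaldehyde enzyme ALDH2 was at 84.9 against 8.05 TPM (difference 3.32 ± 0.14) and ALDH3A1 at 2416 against 1115 TPM (difference 1.11 ± 0.14). CYP2S1, a cytochrome P450 of epithelia, was at 73.2 against 0.771 TPM (difference 5.87 ± 0.18), within a list of xenobiotic enzymes in which 13 of 24 tested were higher in A549 and 5 in NCI-H460 (median 1.00).

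The calls among glutathione transferases and peroxidases ran the other way, 3 of 20 higher in A549 and 9 in NCI-H460 (median -0.38), and 5 and 8 with columns rescaled to the same sum. The summed levels of the list overlapped, at 3993 to 5383 TPM in A549 and 4028 to 4147 TPM in NCI-H460. The mu-class genes lie together on chromosome 1, GSTM4 (chr1:109656099-109674836), GSTM2 (chr1:109668022-109709551), GSTM1 (chr1:109687814-109709039) and GSTM3 (chr1:109733932-109741038), and all 4 were higher in NCI-H460. GSTM1, which is deleted in many people, was at 142 and 142 TPM in NCI-H460 and at 0.108, 0 and 0 TPM in A549 (difference -8.06 ± 0.19, adjusted p = 2.24e-06). GSTM3 was at 319 and 299 TPM in NCI-H460 and 21.8, 16.7 and 18.03 TPM in A549 (difference -4.01 ± 0.14), GSTM4 at 48.4 and 10.1 TPM (difference -2.22 ± 0.16) and GSTM2 at 19.9 and 3.52 TPM (difference -2.35 ± 0.20). These genes are similar in sequence, and GSTM1 and GSTM2 overlap in the deposited positions, so the split among them is uncertain. The omega-class GSTO2 was higher in NCI-H460 too (1.54 against 30.4 TPM, difference -3.96 ± 0.28). CAT, the peroxisomal catalase that splits hydrogen peroxide, was at 39.7, 46.9 and 38.6 TPM in A549 and listed at 0 in both NCI-H460 libraries (difference 6.40 ± 0.18, adjusted p = 3.19e-06).

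Of 37 oncogenes and tumour suppressors of lung cancer tested, 23 were not called, 9 were higher in A549 and 5 in NCI-H460. With median-of-ratios scaling the calls were 7 and 7. The share called was 37.8%, beside 47.8% of all genes tested. The median was 0.09, and without A549 replicate 3 the calls rose to 23 in all, while the share called over all genes rose to 61.9%. EGFR, the epidermal growth factor receptor, was at 18.2, 31.6 and 39.4 TPM in A549 and 11.2 and 11.5 TPM in NCI-H460 (difference 1.28 ± 0.31), with adjusted p = 0.0146. This call was lost without A549 replicate 4 or either NCI-H460 library (adjusted p = 0.0503 to 0.116). MYC, a transcription factor of cell growth, was at 97.9, 71.2 and 105 TPM and 171 and 166 TPM (difference -0.90 ± 0.18, adjusted p = 0.0067), a call lost without either NCI-H460 library (adjusted p = 0.0755 and 0.0688). STK11 was at 38.3 against 25.5 TPM (difference 0.57 ± 0.16, adjusted p = 0.0248). This call was lost with median-of-ratios scaling (adjusted p = 0.169), without A549 replicate 4 (0.0587) and without NCI-H460 replicate 1 (0.0931) or 2 (0.191). The larger differences were in the cyclins CCND3, at 402, 365 and 307 TPM in A549 and 56.9 and 54.2 TPM in NCI-H460 (difference 2.67 ± 0.14), and CCNE1, at 20.8 against 6.01 TPM (difference 1.71 ± 0.17).

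Chromosome band 9p21 holds CDKN2A, CDKN2B and, beside them, MTAP, an enzyme of methionine salvage. CDKN2A and CDKN2B were listed at 0 in all 5 libraries. MTAP (chr9:21802636-21937651) was at 0.518, 0.709 and 0.489 TPM in A549 and 24.2 and 23.7 TPM in NCI-H460 (difference -4.52 ± 0.20, adjusted p = 1.34e-05), so the lines differed at this neighbour while both inhibitor genes were at 0. The noncoding CDKN2B-AS1, which runs through and beyond CDKN2B on the other strand (chr9:21994139-22128103), was at 3.17, 2.48 and 3.78 TPM in A549 and 0.0839 and 0.250 TPM in NCI-H460 (difference 2.44 ± 0.26, adjusted p = 0.000507).

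SMARCA4 encodes one of the alternative motor subunits of the SWI/SNF chromatin remodeller and is known to be mutated in A549. It was at 4.78, 7.02 and 4.28 TPM in A549 and 49.3 and 49.8 TPM in NCI-H460 (difference -3.12 ± 0.22, adjusted p = 8.22e-05). SMARCA2, which encodes the other motor, was not called (17.3, 23.2 and 26.2 TPM and 19.8 and 21.5 TPM, difference 0.08 ± 0.20, adjusted p = 0.76). Of 24 tested genes of the complexes 17 were not called, 3 were higher in A549 and 4 in NCI-H460 (1 and 5 with median-of-ratios scaling, median 0.06 as deposited and -0.17 so scaled). The number called ranged from 3 without either NCI-H460 library and 4 without A549 replicate 4 to 11 without A549 replicate 3.

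Receptor tyrosine kinases were mostly higher in A549, 17 of 26 tested against 5 in NCI-H460 (median 1.11). The ephrin receptor EPHB2 was at 18.2, 17.3 and 17.5 TPM in A549 and 0.212 and 0.246 TPM in NCI-H460 (difference 4.64 ± 0.17). The neurotrophin receptor NTRK3 was at 14.9 against 0.217 TPM (difference 4.47 ± 0.27). FGFR4, a fibroblast growth factor receptor, was at 66.3, 50.8 and 40.6 TPM in A549 and 2.89 and 3.23 TPM in NCI-H460 (difference 3.87 ± 0.22). NCI-H460 was higher in the ephrin receptors EPHA3 (4.58 TPM, listed at 0 in A549, difference -3.34 ± 0.22) and EPHA4 (0.714 against 9.21 TPM, difference -3.02 ± 0.26).

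Growth factors and their modulators, 42 tested, were higher in A549 in 24 cases and in NCI-H460 in 10 (median 1.11). IGFBP4, which binds insulin-like growth factors, was at 2797, 1956 and 2021 TPM in A549 and 24.4 and 24.97 TPM in NCI-H460 (difference 6.47 ± 0.18, adjusted p = 3.19e-06). The activin subunit INHBB was at 61.8 against 0.0420 TPM (difference 6.82 ± 0.22). DKK1, an inhibitor of Wnt signalling, was at 153, 253 and 235 TPM in A549 and 2.92 and 4.11 TPM in NCI-H460 (difference 5.72 ± 0.25). The Wnt ligand WNT5A was higher in NCI-H460, at 0.136 against 9.10 TPM (difference -3.92 ± 0.22).

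A short stretch of chromosome 4 held differences in both directions among neighbours. CXCL8 (chr4:73740541-73743716) and CXCL1 (chr4:73869393-73871308), chemokines that attract neutrophils, were higher in NCI-H460. CXCL8 was at 4.36, 3.35 and 5.34 TPM in A549 and 219 and 232 TPM in NCI-H460 (difference -5.56 ± 0.20), and CXCL1 at 14.999, 8.42 and 12.9 TPM in A549 and 849 and 681 TPM in NCI-H460 (difference -5.95 ± 0.25). CXCL5 (chr4:73995642-73998677), a chemokine of the same family, was not called (112, 132 and 122 TPM and 128 and 134 TPM, difference -0.10 ± 0.12, adjusted p = 0.518). Further along lie 3 ligands of the epidermal growth factor family. EPGN (chr4:74308470-74316789) was at 0, 0.0610 and 0.0394 TPM in A549 and 73.6 and 85.4 TPM in NCI-H460 (difference -7.23 ± 0.19, adjusted p = 3.19e-06). EREG (chr4:74365145-74388749) was at 12.7, 18.8 and 30.7 TPM in A549 and 0.281 and 0.217 TPM in NCI-H460 (difference 4.74 ± 0.36), with adjusted p = 0.000114. AREG (chr4:74445136-74455005) was at 66.7, 65.7 and 79.2 TPM in A549 and 1.59 and 1.39 TPM in NCI-H460 (difference 5.15 ± 0.15), with adjusted p = 3.47e-06. Ligands of one receptor family were thus exchanged, with EPGN in NCI-H460 and its neighbours EREG and AREG in A549.

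Cytokines and chemokines in all were even, 8 higher in A549 and 8 in NCI-H460 of 25 tested (median -0.10). Besides IL6, CXCL1 and CXCL8, NCI-H460 was higher in the chemokine CCL20 (0.189 against 6.97 TPM, difference -3.46 ± 0.28). A549 was higher in the monocyte chemokine CCL2, at 16.5, 11.7 and 9.33 TPM and listed at 0 in NCI-H460 (difference 4.67 ± 0.27). IL18, which inflammasomes process, was at 48.3, 58.5 and 64.4 TPM in A549 and 1.81 and 1.88 TPM in NCI-H460 (difference 4.61 ± 0.17). IL11, of the IL6 family, was at 6.09 against 0.192 TPM (difference 3.26 ± 0.27).

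Genes of the interferon response and of antigen presentation were higher in NCI-H460 in 20 of 42 cases and in A549 in 10 (median -0.77; 19 calls in all without NCI-H460 replicate 1). IFITM3, which blocks virus entry, was at 12.3, 8.11 and 6.003 TPM in A549 and 819 and 734 TPM in NCI-H460 (difference -6.44 ± 0.27, adjusted p = 1.14e-05), and IFI44 at 0.482 against 19.6 TPM (difference -4.39 ± 0.28). Of the class I antigen presentation genes, HLA-B was at 1.84, 2.06 and 3.83 TPM in A549 and 28.2 and 27.4 TPM in NCI-H460 (difference -3.26 ± 0.29). The light chain B2M was at 386, 353 and 337 TPM in A549 and 1068 and 1085 TPM in NCI-H460 (difference -1.59 ± 0.11), with adjusted p = 8.59e-05. HLA genes vary between people and share sequence, so their values depend on the reference used. HLA-DMB, a peptide loader of class II, was higher in A549 (10.6, 26.7 and 24.1 TPM against 0.0296 and 0.0141 TPM, difference 5.22 ± 0.40). Among ligands that meet immune cells, CD274, which encodes PD-L1, was low and higher in NCI-H460 (1.46, 0.402 and 0.611 TPM against 6.32 and 6.01 TPM, difference -2.41 ± 0.35, adjusted p = 0.00191). CD70 was at 40.995 against 230.0 TPM (difference -2.49 ± 0.17), and the complement regulator CD55 at 21.9, 38.2 and 41.8 TPM in A549 and 373 and 431 TPM in NCI-H460 (difference -3.59 ± 0.28). NECTIN2 was higher in A549, at 106 against 33.6 TPM (difference 1.63 ± 0.16). That list of ligands held 7 calls for A549 and 5 for NCI-H460 of 23 tested, or 4 and 8 with median-of-ratios scaling (median 0.20 as deposited and 0.02 so scaled; 7 calls without NCI-H460 replicate 1).

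Matrix genes were divided, 18 higher in A549 and 20 in NCI-H460 of 46 tested (median -0.31). The fibrillar collagen COL5A2 was at 32.3, 45.1 and 43.1 TPM in A549 and 500.1 and 466 TPM in NCI-H460 (difference -3.59 ± 0.17), and the proteoglycan SPOCK1 at 2.53 against 142 TPM (difference -5.57 ± 0.21). A549 was higher in COL18A1, the basement membrane collagen that contains endostatin (128, 116 and 105 TPM against 3.17 and 2.83 TPM, difference 5.06 ± 0.14), and in the proteoglycan VCAN (10.3 against 0.145 TPM, difference 3.90 ± 0.50). Integrins, the receptors for matrix, were higher in A549 in 9 of 16 cases against 2 (median 0.93). ITGA3 was at 209, 188 and 197 TPM in A549 and 12.98 and 11.6 TPM in NCI-H460 (difference 3.96 ± 0.12) and ITGB4 at 43.7 against 4.75 TPM (difference 3.07 ± 0.21), and both form laminin receptors with other chains. Of extracellular proteases and inhibitors, 16 were higher in A549 and 5 in NCI-H460 of 27 tested (13 and 9 with median-of-ratios scaling, median 0.56 as deposited and 0.34 so scaled). The epithelial protease MMP7 was at 31.03, 80.1 and 62.6 TPM in A549 and 0.187 and 0.326 TPM in NCI-H460 (difference 6.17 ± 0.39). The plasminogen activator PLAT (1.82 against 19.02 TPM, difference -3.08 ± 0.20) and the proteoglycan-cleaving ADAMTS1 (0.0431 against 13.04 TPM, difference -4.64 ± 0.21) were higher in NCI-H460.

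On the long arm of chromosome 18 several neighbours were high in NCI-H460 and near 0 in A549. SERPINB5 (chr18:63476958-63505085), SERPINB11 (chr18:63647579-63726432) and SERPINB2 (chr18:63871692-63903888) are clade B serpins, protease inhibitors that act within and around cells. SERPINB2, an inhibitor of the urokinase plasminogen activator, was at 145 and 163 TPM in NCI-H460 and listed at 0 in all 3 A549 libraries (difference -8.27 ± 0.18, adjusted p = 1.80e-06). SERPINB11 was at 81.3 and 82.5 TPM and 0, 0 and 0.0636 TPM (difference -7.31 ± 0.19), and SERPINB5 at 33.9 and 33.4 TPM and 0, 0.0357 and 0.0273 TPM, in the same order. The survival gene BCL2 (chr18:63123346-63320128), just before them, was at 0.536, 0.518 and 0.877 TPM in A549 and 5.92 and 5.84 TPM in NCI-H460 (difference -2.49 ± 0.24, adjusted p = 0.000291). The survival gene BCL2L1 on chromosome 20, which encodes BCL-XL, went the other way, at 139.8, 127 and 148 TPM in A549 and 28.1 and 28.8 TPM in NCI-H460 (difference 2.26 ± 0.12), with adjusted p = 2.38e-05. So did the apoptosis inhibitor BIRC3, at 11.1 against 0.800 TPM (difference 3.13 ± 0.28). Their list held 14 calls for A549 and 5 for NCI-H460 of 32 tested, or 12 and 8 with median-of-ratios scaling (median 0.50 as deposited and 0.27 so scaled; 12 calls without either NCI-H460 library).

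The cell cycle lists depended on the scaling. Genes of G1/S and DNA replication had 13 calls for A549 and 4 for NCI-H460 of 38 (6 and 9 with median-of-ratios scaling). Genes of G2/M and mitosis had 4 and 5 of 38 (2 and 10). Their medians as deposited were 0.25 and -0.02. They also depended on single libraries, with 8 and 6 calls in the first list without NCI-H460 replicates 1 and 2, and 4 in the second without NCI-H460 replicate 2 against 15 without A549 replicate 3. No member of either list differed by at least 2.

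Sterol and fatty acid synthesis was higher in A549 in 20 of 34 genes and in NCI-H460 in 3 (median 0.69; 15 and 13 calls in all without NCI-H460 replicates 1 and 2). HMGCS1, an early enzyme of sterol synthesis, was at 55.7, 88.2 and 69.5 TPM in A549 and 11.7 and 12.4 TPM in NCI-H460 (difference 2.49 ± 0.20). SQLE, which makes the sterol precursor epoxide, was at 72.2 against 20.4 TPM (difference 1.80 ± 0.13), and the sterol reductase TM7SF2 at 23.1 against 3.69 TPM (difference 2.49 ± 0.16). The unfolded protein response of the endoplasmic reticulum ran the other way, with 13 of 22 genes higher in NCI-H460 and 3 in A549 (median -0.54; 9 calls in all without either NCI-H460 library). The chaperone HSPA5 was at 253, 279.7 and 244 TPM in A549 and 642 and 623 TPM in NCI-H460 (difference -1.29 ± 0.11, adjusted p = 0.000197), and HYOU1 at 45.9 against 138 TPM (difference -1.59 ± 0.14).

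The ATF4 stress response had 5 calls for A549 and 9 for NCI-H460 of 22 tested (median -1.03; 6 and 5 calls in all without NCI-H460 replicates 1 and 2). Here the A549 libraries differed among themselves: ASNS, which makes asparagine, was at 37.02, 42.3 and 104 TPM, with replicate 5 highest, against 205 and 222 TPM in NCI-H460 (difference -1.96 ± 0.42, adjusted p = 0.00922). The call was lost without either NCI-H460 library (adjusted p = 0.0816 and 0.0954). NUPR1, a stress-induced chromatin protein, was higher in A549 (12.4, 8.50 and 22.3 TPM against 2.27 and 1.62 TPM, difference 2.51 ± 0.39), also with replicate 5 highest. Glycolysis and hypoxia genes had 11 and 14 calls of 34 (8 and 17 with median-of-ratios scaling, median -0.32 as deposited and -0.55 so scaled). HK2, the inducible hexokinase, was at 0.175, 0.229 and 0.226 TPM in A549 and 15.3 and 15.4 TPM in NCI-H460 (difference -4.48 ± 0.20), with adjusted p = 1.39e-05. CA12, a carbonic anhydrase, was at 302, 442 and 373 TPM in A549 and 25.7 and 21.6 TPM in NCI-H460 (difference 3.94 ± 0.18), with adjusted p = 1.54e-05. Amino acid and glucose transporters were higher in NCI-H460 in 12 of 28 cases and in A549 in 5 (median -0.46). At the extremes of the list stood SLC38A5, a glutamine carrier, at 0.299 against 73.9 TPM (difference -6.58 ± 0.28), and SLC7A7, a cationic amino acid exchanger, at 29.6 against 0.459 TPM (difference 5.003 ± 0.26).

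Of 84 genes for cytosolic ribosomal proteins, 46 were higher in NCI-H460 and 3 in A549 (median -0.50). These calls fell to 15 and 10 in all without NCI-H460 replicates 1 and 2. The summed levels were 145029.8 to 181012 TPM in A549 and 213408 to 214174 TPM in NCI-H460. RPL9 had the largest difference of the list, at 311, 268 and 339 TPM in A549 and 1769 and 1925 TPM in NCI-H460 (difference -2.60 ± 0.14, adjusted p = 2.61e-05). RPL22L1, a paralog of RPL22, was also higher in NCI-H460 (289.9 against 726 TPM, difference -1.34 ± 0.15), and RPS27L, a paralog of RPS27, in A549 (401 against 160.5 TPM, difference 1.32 ± 0.13). Ribosomal protein genes have many processed copies in the genome, so reads may be divided among copies. Of the 13 mitochondrially encoded messenger RNAs, 1 was called higher in A549 and 2 in NCI-H460 (0 and 2 with median-of-ratios scaling), none without A549 replicate 4 or either NCI-H460 library, and 8 without A549 replicate 3. The noncoding GAS5, a host of small nucleolar RNAs whose decay is tied to translation, was at 191, 171 and 229 TPM in A549 and 1033 and 1021 TPM in NCI-H460 (difference -2.39 ± 0.15).

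**Figure D4:**
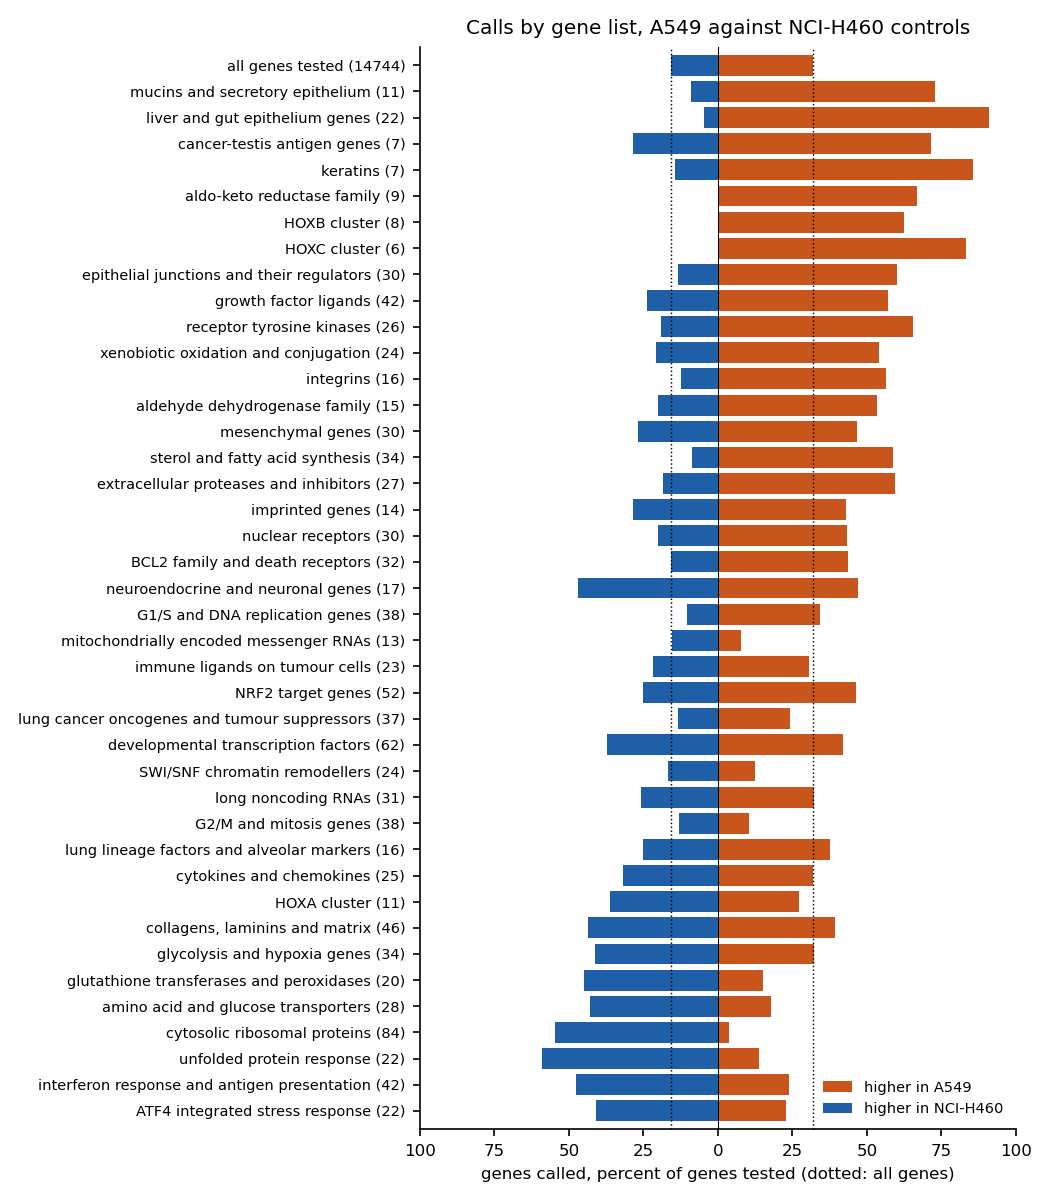
Genes called higher in A549 (right, orange) and in NCI-H460 (left, blue) as a percentage of the genes tested in each list with at least 6 tested, sorted by median difference, with the number tested in parentheses and the percentages of all 14744 genes tested as dotted lines. Liver and gut genes have the longest bar to the right (20 of 22), and the unfolded protein response (13 of 22) and the ribosomal proteins (46 of 84) the longest bars to the left.

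Cancer-testis antigen genes, normally silent outside the germ line, were detected in few cases: 7 of 82 passed the filter, with 5 higher in A549 and 2 in NCI-H460. Besides XAGE1A and XAGE1B, A549 was higher in PRAME, at 128, 122 and 108 TPM in A549 and 11.7 and 13.5 TPM in NCI-H460 (difference 3.19 ± 0.13). MAGEA6 was at 14.8 TPM in A549 and listed at 0 in NCI-H460 (difference 4.93 ± 0.19), and its near copy MAGEA3 was at 3.63 against 0.143 TPM (difference 2.67 ± 0.27). NCI-H460 was higher in MAGEA1 (0.0277, 0.0992 and 0.0434 TPM in A549 and 76.4 and 83.1 TPM in NCI-H460, difference -7.17 ± 0.19) and MAGEB2 (0.106 against 51.6 TPM, difference -6.43 ± 0.19). The lines thus held different members of the MAGE family. Among imprinted genes, which are read from one parental copy, 6 of 14 tested were higher in A549 and 4 in NCI-H460 (median 0.52). The neighbours SGCE, at 43.7, 47.6 and 49.5 TPM in A549 and 0.256 and 0.513 TPM in NCI-H460 (difference 5.76 ± 0.19), and PEG10, at 94.4, 66.3 and 51.98 TPM in A549 and 3.56 and 5.43 TPM in NCI-H460 (difference 3.82 ± 0.28), were higher in A549. So were the noncoding H19, at 6.36 against 0.0773 TPM (difference 3.53 ± 0.33), and MEG3, at 3.70 against 0.00238 TPM (difference 3.03 ± 0.28). GNAS was higher in NCI-H460 (560.5 against 1303 TPM, difference -1.22 ± 0.13).

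Of 31 named long noncoding RNAs tested, 10 were higher in A549 and 8 in NCI-H460 (median -0.02; 11 calls in all without either NCI-H460 library). LINC00511 was at 26.4, 25.5 and 38.8 TPM in A549 and 1.23 and 1.02 TPM in NCI-H460 (difference 4.22 ± 0.23, adjusted p = 2.83e-05). AC107959.3, taken here as the RNA called candidate 42 in the labels, was at 7.13, 5.12 and 10.6 TPM in A549 and 1.16 and 2.33 TPM in NCI-H460 (difference 1.85 ± 0.36, adjusted p = 0.00625). The call was lost without NCI-H460 replicate 1 (adjusted p = 0.0781). AC015712.6, taken as candidate 240 (chr15:100849831-100876836), lay under the filter in both lines, at 0.267, 0.418 and 0.354 TPM in A549 and 0.0492 and 0.107 TPM in NCI-H460. ALDH1A3, described above, starts shortly after it on the same strand (chr15:100877714-100916626), and both were higher in every A549 library than in either NCI-H460 library. The lines did not overlap, in either direction, for 68.6% of all genes tested, and a link between these 2 neighbours was not tested. Protein-coding genes made up 81.8% of the genes tested, 77.9% of those with a called difference of at least 2 in favour of A549 and 70.8% of those in favour of NCI-H460. Long noncoding genes made up 9.89%, 13.5% and 15.96%.

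The differences were not spread evenly over the chromosomes. The median difference was highest on chromosomes 19 (0.68, 982 genes), 8 (0.65, 482 genes), 11 (0.57, 777 genes), 17 (0.52, 958 genes) and 15 (0.47, 495 genes). It was lowest on chromosomes 13 (-0.08, 234 genes), 1 (-0.07, 1359 genes) and X (-0.07, 438 genes). On chromosome 8, 52.7% of genes tested were called higher in A549 and 9.96% in NCI-H460, while on chromosome X 17.8% and 25.6% were. The same 5 chromosomes had the highest medians with 42_ASO5, 240_ASO1 and 240_ASO3, with chromosome 8 at 0.67, 0.74 and 0.67 and chromosome 19 at 0.61, 0.56 and 0.59. With 42_ASO3 the order differed: chromosomes 8 (0.97), 15 (0.75), 3 (0.66), 11 (0.65) and 17 (0.63) were highest, and chromosome 19 (0.53) lay below chromosome 10 (0.62). The number of DNA copies of each chromosome was not measured here.

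The base composition of the genes moved with the difference. The genes were put in 10 groups of equal size by GC content. Between controls the median difference rose from 0.02 in the group with the lowest GC content (median 37.0%) to 0.49 in the group with the highest (64.4%). With 42_ASO3 it ran the other way, from 0.79 to 0.09, and with 240_ASO3 the groups lay between 0.14 and 0.26. With the median of each GC group subtracted, the control medians of chromosomes 8, 19, 11, 15 and 17 were 0.44, 0.36, 0.33, 0.29 and 0.26. The part of GC content in the difference of any single gene was not tested.

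**Figure D5:**
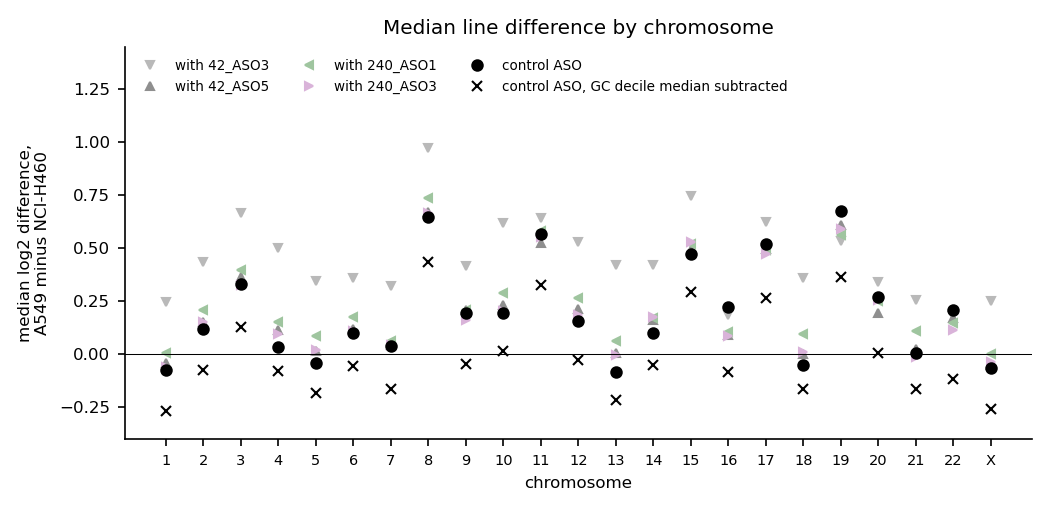
Median difference, A549 minus NCI-H460 on the log2 scale, over the genes tested on each chromosome, between control libraries (black circles), between control libraries with the median of each gene's GC group subtracted (crosses) and between libraries with each targeting ASO (coloured triangles). Chromosomes 8, 11, 15, 17 and 19 lie highest between controls, at 0.47 to 0.68.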

How the data were processed

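RNA was sequenced from 25 libraries of A549 and NCI-H460 cells, made with a NEBNext Ultra RNA kit, per the labels' protocols. The deposited table holds TPM values per gene name that the authors rescaled, so a column is a normalised signal and not a count, and columns differ in their sums. The tools named are kallisto and sleuth 0.30, and the build is hg38, per the submitters' processing notes, which give no roles or order. No source used here states the annotation release, the strand setting or the rescaling step, so whether both lines were rescaled together is unknown. Gene positions printed are those of the deposited tables. The chromosome medians, the gene types and the GC content (of the longest transcript) use GENCODE v29, matched by gene name. Of the placed names matched to it, 51.7% had the same start and end in both sources. Of the 14744 genes tested, 488 had no gene type from it, and 97.0% had a GC value. Promoter sequences are those of RefSeq on GRCh38.p14.

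The 3 A549 and 2 NCI-H460 control libraries were compared on log2(TPM + 0.5) for the 14744 names with a mean of at least 1 TPM, 44683 names being left out, with limma 3.58.1 in R 4.3.3 (empirical Bayes with a mean trend) and Benjamini-Hochberg adjustment. The script was tested on simulated data. The leading genes named are the 12 gene symbols and 3 noncoding-type names with the largest called difference in each direction and at least 10 TPM in the higher line. Only genes with all control libraries of one line above all of the other were eligible, so this separation was a condition and not a result. From each of 45 gene lists up to 4 called members per direction with the largest difference were eligible, with members that bear on the list's role given whatever their values. The members and lists were chosen with earlier results of these data known. Median-of-ratios and same-sum scaling, other pseudocounts and filters, a fit to all 25 libraries, 1 prior variance for all genes, a test beyond a difference of 1 and leaving out each library were tried as alternatives. A filter on the mean of the 2 line means, the subtraction of GC group medians and a replicate block within each line were added after seeing the data. Values of some genes are not reported here.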

Additional observations from a re-analysis of the deposited data

Results flagged for a closer look

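For some genes named above the difference between the lines was not the same size in cells given a targeting ASO as under the control ASO, tested as an interaction term in limma over all 25 libraries and adjusted over the 14744 genes tested. Each value in parentheses is the line difference with the ASO minus that under control, on the log2 scale, and the cause of these changes was not tested. With 42_ASO3 the median line difference also moved from 0.02 between controls to 0.79 in the group with the lowest GC content. In the group with the highest GC content it moved from 0.49 to 0.09. The interaction was fitted to values as deposited only, so a shift shared by many genes is not separated from a change of 1 gene.

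With 42_ASO3 the largest number of named genes changed, 49 of the 204 named and tested, beside 2929 of all 14744 genes tested (19.9%). Genes higher in A549 differed less between the lines for AREG (-1.27), CCL2 (-1.32), CCND3 (-0.97), CLDN2 (-0.92), COL18A1 (-1.92), FGFR4 (-1.46), FOXA2 (-0.79), GCNT3 (-0.84), IGFBP4 (-1.72), INHBB (-1.16), KRT18 (-0.52), NTRK3 (-1.41), SNAP25 (-1.16), SOX2 (-1.20) and SPINT2 (-0.61) (adjusted p = 3.60e-06 to 0.0457). Genes higher in NCI-H460 also differed less, which gives a positive value, for AGR2 (0.86), CCL20 (1.58), CCN2 (0.94), CD55 (1.40), CDH11 (2.40), COL3A1 (0.78), COL5A2 (0.99), COL8A1 (1.56), CPS1 (0.84), CXCL8 (0.95), EPB41L3 (1.03), EPHA3 (1.86), FOXC1 (0.91), HK2 (1.41), KRT19 (0.80), LINC00824 (0.78), MAP2 (1.14), MTAP (1.43), NCAM1 (1.62), NEFL (1.84), PLAT (0.97), SERPINB11 (0.70), SERPINB5 (0.93), SPOCK1 (2.15) and WNT5A (1.85) (adjusted p = 2.76e-05 to 0.0468). CDH11, the mesenchymal cadherin, was thus still far higher in NCI-H460, with a difference of -7.78 against -10.18 between controls. The gap was wider with 42_ASO3 for EGFR (1.55), GPX2 (0.69), HOXC4 (1.61), INA (0.81) and XAGE1B (0.69) on the A549 side (adjusted p = 0.00196 to 0.0424). For EGFL7, which was not called between controls, the difference moved toward NCI-H460 (-0.89, adjusted p = 0.0305). The line difference fell to about 0 or turned in sign for 3 genes, of which CXCL5 was not called between controls. These were AC107959.3, from 1.85 between controls to -0.0047 (change of -1.85, adjusted p = 0.0319), CXCL5, from -0.10 between controls to 0.79 (change of 0.89, adjusted p = 0.0012) and FOXA1, from -1.71 between controls to 0.19 (change of 1.90, adjusted p = 0.00656). AC107959.3 is the RNA taken here as the target of 42_ASO3.

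With 240_ASO3 the genes whose difference narrowed on the A549 side were AREG (-1.86), CLDN2 (-1.10), COL18A1 (-1.77), FGFR4 (-1.02), FOXA2 (-0.66), GPX2 (-1.79), KRT18 (-0.74), PRAME (-0.52), SPDEF (-1.75) and WNT7B (-0.93) (adjusted p = 1.37e-05 to 0.0458). GPX2 went from 10.22 between controls to 8.43 and the goblet cell factor SPDEF from 5.69 to 3.94. In A549 GPX2 was at 1573, 1559 and 1625 TPM with 240_ASO3, above its control values (1026, 1047 and 811 TPM). In NCI-H460 it was at 4.57 and 3.69 TPM against 0.256 and 0.351 TPM under control, so the size of its narrowing rests on values near 0. On the NCI-H460 side the line difference narrowed for CLDN4 (1.18), LAMA1 (0.78) and PLAT (1.13) (adjusted p = 0.015 to 0.0464), and on the A549 side it widened for SQLE (0.69) (adjusted p = 0.0361). With 42_ASO5 the difference narrowed for CLDN2 (-1.35) and COL18A1 (-1.09) (adjusted p = 0.00773 to 0.00973). The same control libraries enter each of these comparisons, so the values for different ASOs are not independent.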

How the results depend on the processing

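Of the 195 genes named and called, 168 had a value under every alternative run, and the other 27 fell under a stricter filter. Of the 168, 150 kept their direction and stayed called under every alternative, and 158 did when the test of a difference beyond 1 is set aside. Leaving out each library in turn, the calls ranged from 3754 (without NCI-H460 replicate 2) to 9121 (without A549 replicate 3), those higher in A549 from 2584 to 6018 and those higher in NCI-H460 from 1170 to 3103. Tested against a difference beyond 1 on the log2 scale, 1978 genes were called, 1285 higher in A549 and 693 in NCI-H460, and 304 of the gene list members in place of 678. With a filter of 5 TPM, 960 genes had a called difference of at least 2, since fewer genes were tested. The sign of 7 genes that were not called turned. With median-of-ratios scaling the difference was -0.14 for AKR1C1, -0.17 for KEAP1, -0.15 for SMARCA2 and -0.13 for CD68. Leaving out single libraries it ran from -0.11 to 0.26 for AKR1C1, -0.08 to 0.17 for KEAP1, -0.04 to 0.25 for SMARCA2, -0.39 to 0.14 for CD14, -0.08 to 0.28 for CD68, -0.27 to 0.01 for EGFL7 and -0.19 to 0.06 for HOXA3. The cause of these shifts was not tested. No paired analysis was possible because the 2 lines share no replicate number under the control ASO (3, 4 and 5 against 1 and 2). Within a line the replicate numbers recur across ASO groups, but no label says what they share. Deviations of same-numbered libraries from their group means correlated at a median of 0.23 in A549 (over 0.1 in 26 of 30 pairs) and 0.06 in NCI-H460 (4 of 20). With the number within each line as a replicate block, chosen after seeing the data, the changes of the line difference called were 5647 in place of 2929 with 42_ASO3, 50 in place of 6 with 42_ASO5, 1 as before with 240_ASO1 and 526 in place of 174 with 240_ASO3. All calls made without the block were also made with it. The number of reads behind each value is unknown, so no interval for counting error can be given for genes near 0.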
